A study of Mus musculus with 4 samples.

Results

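Fbxl10, also called Kdm2b, was mapped in mouse embryonic fibroblasts (MEFs) at 51 genes that drive the cell cycle and DNA replication, out of 21887 nuclear protein-coding genes. The 51 genes are a fixed list of cyclins, Cdk genes, Rb, E2f and Myc genes, replication genes and mitotic genes, here taken as 18 drivers of G1 and S phase entry, 19 replication genes and 14 genes of mitosis. All 51 were found in the gene annotation, and all lie on autosomes. The MEFs came from a gain-of-function model with an HA-tagged Fbxl10, and both groups carried that transgene. In the induced group 1 µg/ml doxycycline had switched the protein on for 48 hours, and the non-induced group had no doxycycline, so an effect of doxycycline itself cannot be told apart from one of the tagged protein. ChIP-seq, the sequencing of DNA pulled down through the HA tag, gave 1 list of peaks per group. Only the introduced protein carries the tag, but how specific the pull-down was could not be tested. The list without doxycycline is the longer one, so a peak alone does not show tagged Fbxl10. Nothing in the lists measures expression, so the labelled cell type could not be checked against marker genes.

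There were 5497 induced and 10532 non-induced peaks. Each peak carries a score from the authors' peak caller, which starts at 50 in both lists, has no stated formula and is used here only to order peaks within a list. A higher or stronger peak means one with a higher score, not a measured signal. Since each condition has a single list, no test was made, depth is unknown, and the intervals given are exact 95% Clopper-Pearson intervals that cover counting error only.

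The proteins of these genes act in a known order. Growth signals raise Myc and the D-type cyclins, which with Cdk4 and Cdk6 phosphorylate the pocket proteins (Rb1, Rbl1, Rbl2) and so release E2f factors, which turn on cyclin E, Cdk2 and the replication genes. The origin recognition complex, Cdc6 and Cdt1 load the MCM helicase at origins, Cdc45 helps to activate it, and primase, polymerases, the clamp Pcna and ribonucleotide reductase sustain synthesis. Cyclin A and B with Cdk1, the Aurora and Polo kinases, and the spindle checkpoint then guide chromosomes through mitosis. Fbxl10 itself has a CXXC zinc finger known to bind unmethylated CG dinucleotides, which are dense in the promoters of many such genes.

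Of the 51 genes 39 have an entry in the RefSeq promoter table (GRCm38.p6, the assembly of mm10), which gives the strand, the start and the sequence around it. The stretches shown are each the 250 bases before a RefSeq start, 5′ to 3′, with the last base next to the start. In the first 4 the capitals mark CG dinucleotides. The genes were chosen among those 39 only, so Ccnd1 and Prim2, with higher peaks but no entry, were left out. The first 3 stretches belong to the gene of each group with the highest induced peak over its start. They are Cdk6 for the G1 drivers (chr5:3343643-3343892, plus strand), Rrm2 for replication (chr12:24708004-24708253, plus strand) and Bub1 for mitosis (chr2:127831860-127832109, minus strand). Ccne1 (chr7:38107491-38107740, minus strand) has the most CG among genes without an induced peak within 5 kb. Cdc25a (chr9:109875329-109875578, plus strand) was added after the values were seen, as the first by name of 5 genes without a peak that each have 2 E2F matches in these bases (with Cdk2, Mcm5, Mcm6 and Mycn), and there the capitals mark those elements.
Cdk6: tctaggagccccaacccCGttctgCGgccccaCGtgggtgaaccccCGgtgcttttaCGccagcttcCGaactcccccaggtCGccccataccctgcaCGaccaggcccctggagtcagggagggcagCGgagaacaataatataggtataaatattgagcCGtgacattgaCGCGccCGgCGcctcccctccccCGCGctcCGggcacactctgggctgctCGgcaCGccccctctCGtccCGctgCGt
Rrm2: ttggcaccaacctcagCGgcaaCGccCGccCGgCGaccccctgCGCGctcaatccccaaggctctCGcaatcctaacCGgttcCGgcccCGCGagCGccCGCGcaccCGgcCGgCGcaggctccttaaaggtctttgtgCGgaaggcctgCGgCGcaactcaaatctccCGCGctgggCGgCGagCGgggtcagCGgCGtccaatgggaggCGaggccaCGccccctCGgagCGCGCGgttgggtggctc
Bub1: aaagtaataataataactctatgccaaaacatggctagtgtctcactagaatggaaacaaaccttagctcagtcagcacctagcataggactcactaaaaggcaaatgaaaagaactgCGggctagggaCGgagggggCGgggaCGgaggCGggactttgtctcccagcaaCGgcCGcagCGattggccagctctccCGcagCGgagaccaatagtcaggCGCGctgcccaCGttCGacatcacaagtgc
Ccne1: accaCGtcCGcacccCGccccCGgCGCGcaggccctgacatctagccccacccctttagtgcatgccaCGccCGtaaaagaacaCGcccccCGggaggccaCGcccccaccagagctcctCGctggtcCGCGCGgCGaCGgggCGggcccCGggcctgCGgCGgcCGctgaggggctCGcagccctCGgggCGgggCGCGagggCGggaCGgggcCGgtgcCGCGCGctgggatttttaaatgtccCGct
Cdc25a: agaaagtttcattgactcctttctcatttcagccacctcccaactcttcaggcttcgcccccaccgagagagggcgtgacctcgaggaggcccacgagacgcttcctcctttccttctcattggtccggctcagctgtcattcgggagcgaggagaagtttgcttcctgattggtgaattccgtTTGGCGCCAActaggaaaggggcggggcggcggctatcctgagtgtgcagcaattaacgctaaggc
Induced peaks cover 222 of the 250 bases at Cdk6, all 250 at Rrm2 and 37 at Bub1, and 0 at Ccne1 and Cdc25a. The stretches hold 22 CG dinucleotides at Cdk6, 34 at Rrm2, 14 at Bub1, 34 at Ccne1 and 15 at Cdc25a. The genes were picked by whether they had a peak, so these counts cannot show how CG content goes with peaks.

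In the induced list 14 of the 51 genes (27.5%, interval 15.9 to 41.7) had a peak within 1 kb of either end, against 13.4% of all protein-coding genes and 14.2% of the autosomal ones. A gene with such a peak is called marked from here on. Within 5 kb it was 18 of 51 (35.3%, 22.4 to 49.9) against 18.4%. Counting peaks anywhere in the gene at 1 kb gave the same 18 genes, against 18.5%, and a window of 500 bp the same 14, against 11.3%. These shares over all genes are not matched for CG content. The marked share was alike in the 3 groups, at 5 of 18 G1 drivers (27.8%, 9.69 to 53.5), 5 of 19 replication genes (26.3%, 9.15 to 51.2) and 4 of 14 mitosis genes (28.6%, 8.39 to 58.1). The wide intervals overlap almost wholly, so no order among the groups can be read. Peak scores are given without a test, on 4 or 5 genes a group. The median of the highest score per marked gene was 150.5 for G1 drivers, 118 for replication and 96.8 for mitosis. The order turned with the window, the G1 median being 107 at 500 bp and 93.8 at 5 kb, below replication in both, so none can be read. Over all 14 genes at 1 kb it was 108, against 80.2 over all 2930 marked protein-coding genes. Scores of at least 100 were reached by 7 of the 14 (50%), against 31.7% of marked genes in general. Behind the 14 genes stood 16 different peaks, with a median width of 895 bp against 864 bp for all induced peaks at gene ends. Of the 16 peaks 1 also lay within 1 kb of another protein-coding gene, Ufd1, while 19.6% of all 2591 induced peaks at gene ends served 2 or more genes.

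**Figure D1:**
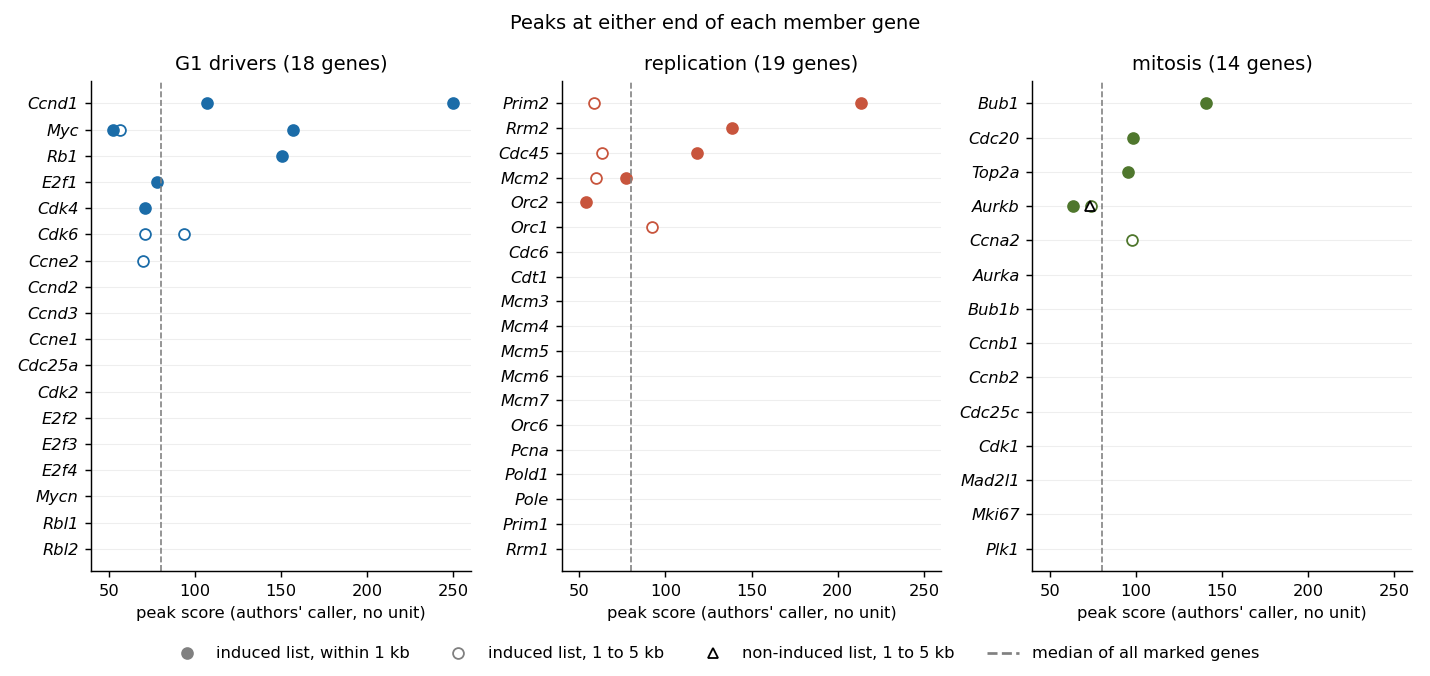
Score of each peak near either end of the 51 genes, in 3 panels by role. Filled circles are induced peaks within 1 kb, open circles induced peaks at 1 to 5 kb, the triangle a non-induced peak, and the dashed line is the median highest score of all marked protein-coding genes (80.2). Ccnd1 and Prim2 stand above 200, and 33 genes have no symbol.

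In the non-induced list 0 of the 51 genes had a peak within 1 kb, which by the limit of 3 counts in 51 allows a share of up to 5.88% (upper end of the exact interval 6.98%), against 1.59% of all protein-coding genes, and 0 had one within 500 bp, against 0.982%. A share as low as the background would also give a count near 0 in so short a list, so nothing particular can be read from it. Within 5 kb the only gene was Aurkb (1 of 51, 1.96%, against 5.36%). Its non-induced peak (score 73.6, chromosome 11, 69040670 to 69041107) lay 4517 bp from the gene, within 1 kb of 4 transfer RNA genes, and 230 bp from an induced peak (74.1, 69041338 to 69042064) beside the same transfer RNA genes. The only other non-induced peak in a gene of the list lay inside Prim2, 11792 bp from its lower end (67.9). None of the induced peaks within 5 kb of the 51 genes overlapped a non-induced peak (0). The share of all induced peaks that overlap a non-induced one was not worked out, so nothing particular to these genes can be read from it.

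**Figure D2:**
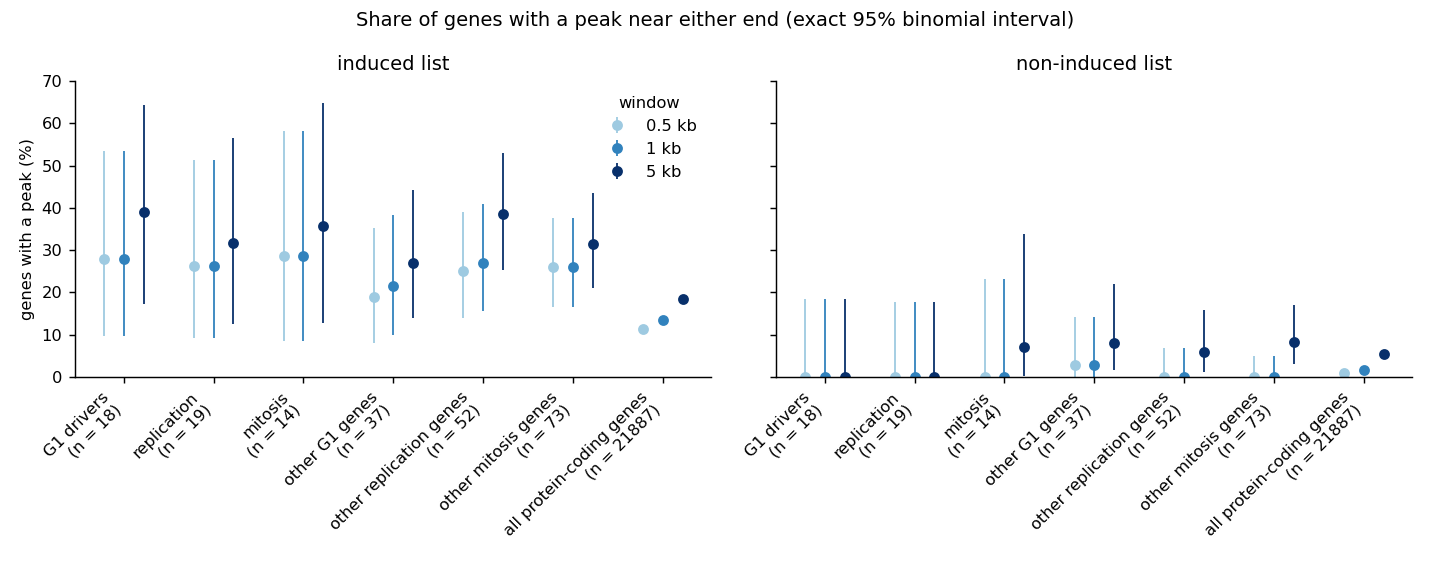
Percentage of genes with a peak within 0.5, 1 or 5 kb of either end, for the 3 groups of members, 3 lists of other genes of the same processes and all protein-coding genes. Bars are exact 95% intervals for counting error. In the induced list the members' groups lie at 26.3% to 28.6% at 1 kb, above the 13.4% of all genes, which is not matched for CG content. In the non-induced list the members' groups lie at 0 at 1 kb.

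Among the G1 drivers the highest peaks lay at Ccnd1, Myc and Rb1, 3 regulators of the decision to enter the cycle. Ccnd1, which encodes cyclin D1 (chromosome 7, 144929931 to 144939831, mm10), had a pair of peaks at its upper end. The stronger scored 249.65, ranked 66 of 5497, was 3305 bp wide (144940783 to 144944087) and began 952 bp beyond the gene. The other scored 107 (144939123 to 144940006) and covered the end itself. Within 1 kb the stronger Ccnd1 peak had the highest score and the greatest width at the 51 genes, while within 500 bp Prim2 had the highest score and Myc the widest peak. The Ccnd1 paralogs Ccnd2 and Ccnd3 had no induced peak nearer than 882 and 89.3 kb. Myc, the growth-promoting transcription factor gene (chromosome 15, 61985341 to 61990361), had 3 peaks. The highest scored 157 (rank 329) and lay inside the gene over 2686 bp (61985524 to 61988209), 183 bp from its lower end. The others scored 52.6, covering that end, and 56.4, at 1769 bp outside it. All 3 Myc peaks lay around the lower end. Mycn, its relative in neural tissue, was the gene farthest from any induced peak, at 1210 kb.

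Rb1, the retinoblastoma gene that restrains E2f factors (chromosome 14, 73192858 to 73325951), had a single peak of score 150.5 (rank 377, 73326022 to 73326866, 845 bp), 71 bp beyond its upper end. Its relatives Rbl1 and Rbl2 had none nearer than 40.5 and 162 kb. E2f1, the founding E2f activator (chromosome 2, 154559400 to 154569892), had a peak of 78.1 (rank 2003, 154568616 to 154569521, 906 bp). The peak covered the start in the promoter table at 154569426, which lies inside the annotated gene, and ended 371 bp short of the gene's upper end. Neither the activators E2f2 and E2f3 nor E2f4, mostly a repressor, had one within 5 kb, with nearest peaks at 22.2, 150 and 28.0 kb. Cdk4, the kinase partner of cyclin D (chromosome 10, 127063535 to 127067288), had a peak of 70.9 (rank 2422, 127063579 to 127064214, 636 bp) that began 44 bp after its start. The E2f1 and Cdk4 peaks were thus near or below the median of marked genes, unlike those of Ccnd1, Myc and Rb1.

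Cdk6 and Ccne2 were reached only at 5 kb. Cdk6 (chromosome 5, 3341004 to 3531008), the other kinase partner of cyclin D, had peaks of 93.8 (3343745 to 3345209) and 70.9 (3343053 to 3343716), 2741 and 2049 bp inside the gene as annotated. The stronger covers the start in the promoter table at 3343893, which lies inside the annotated gene, so Cdk6 counts as marked when distances are taken from that start. A further induced peak of 54.1 lay deep inside the gene, 37856 bp from its upper end. Ccne2 (cyclin E2) had a peak of 69.8 (chromosome 4, 11191766 to 11192696) 1333 bp inside the gene, the second-nearest miss of the 1 kb limit. The remaining G1 genes were without a peak at 5 kb: Ccne1, at 53.4 kb, Cdk2, the partner of cyclin E, at 99.8 kb, and Cdc25a, the phosphatase that activates Cdk2, at 411 kb.

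Among the replication genes the highest peak lay at Prim2, the large subunit of primase (chromosome 1, 33453808 to 33669808). It scored 213 (rank 110, 33669190 to 33670936, 1747 bp) and covered the upper end of the gene, and a second peak of 58.4 lay 1777 bp outside the lower end. Prim1, the catalytic subunit, had none nearer than 28.2 kb. Rrm2, the regulated subunit of ribonucleotide reductase (chromosome 12, 24708254 to 24714146), had a peak of 139 (rank 488, 24707629 to 24708787, 1159 bp) that covered its start and all of the stretch printed above. Its partner Rrm1 had none nearer than 286 kb. Cdc45, part of the active helicase (chromosome 16, 18780447 to 18811972), had a peak of 118 (rank 728, 18811456 to 18812383, 928 bp) over its start, shared with the neighbouring Ufd1, so the peak cannot be given to either gene alone. A second peak of 63.3 lay 2205 bp beyond the other end of Cdc45, next to Cldn5, a tight junction gene.

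Of the 6 MCM helicase genes only Mcm2 had a peak within 5 kb (chromosome 6, 88883474 to 88898780). It scored 76.9 (rank 2051, 88897798 to 88898710, 913 bp) and began 70 bp after the start, and another of 59.9 lay 3459 bp upstream near Tpra1. For Mcm3, Mcm4, Mcm5, Mcm6 and Mcm7 the nearest induced peaks were 70.3, 249, 131, 86.8 and 108 kb away. Of the origin recognition genes Orc2 (chromosome 1, 58462771 to 58505113) had the lowest score of the 14, 53.9 (rank 4504, 58504705 to 58505368, 664 bp), over its start. Orc1 had a peak of 92.2 (chromosome 4, 108579445 to 108580173) that lies 3740 bp inside the lower end of the annotated gene but covers its start in the promoter table at 108579454, and Prpf38a, a splicing gene, lies within 1 kb of it. Orc6 was at 272 kb. The loading factors Cdc6 and Cdt1 were at 12.1 and 283 kb, the clamp gene Pcna at 105 kb, and the polymerase genes Pold1 and Pole at 23.9 and 25.7 kb.

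Among the mitosis genes Bub1, a spindle checkpoint kinase (chromosome 2, 127800197 to 127831859), had the highest peak, 141 (rank 462, 127831201 to 127831896, 696 bp), over its start. Cdc20, which activates the anaphase-promoting complex (chromosome 4, 118432901 to 118437343), had one of 98.3 (rank 1216, 118436726 to 118437662, 937 bp), also over its start. Top2a, the topoisomerase that untangles sister chromatids (chromosome 11, 98992947 to 99024199), had one of 95.3 (rank 1308, 99023575 to 99024208, 634 bp). Like the Bub1 and Cdc20 peaks it covered the start. Aurkb, the kinase of the chromosomal passenger complex (chromosome 11, 69045624 to 69051664), had one of 63.3 (rank 3071, 69045606 to 69046319, 714 bp) over its lower end. Ccna2 (cyclin A2, chromosome 3) had a peak of 97.6 (36570831 to 36571855) 1183 bp inside the gene, the nearest miss of the 1 kb limit. Cdk1, Ccnb1 and Ccnb2 (the B cyclins) and Plk1 had no peak within 5 kb, the nearest lying at 123, 133, 199 and 177 kb. The same held for the phosphatase gene Cdc25c (25.7 kb), Aurka (69.4 kb), the checkpoint genes Bub1b (285 kb) and Mad2l1 (355 kb), and the proliferation marker gene Mki67 (1018 kb).

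The 51 genes were sorted, after the values were seen, into families, complexes and looser groups such as Top2a with Mki67. Of the 17 families with 2 or more genes, 13 had exactly 1 gene marked at 1 kb, 4 had 0, and 0 had 2 or more. At 5 kb 2 families had a pair, Cdk4 with Cdk6 and Orc1 with Orc2. No test of this spread was made. How often pairs would be marked at a share of 27.5% was not worked out, so it cannot be read as rare.

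**Figure D3:**
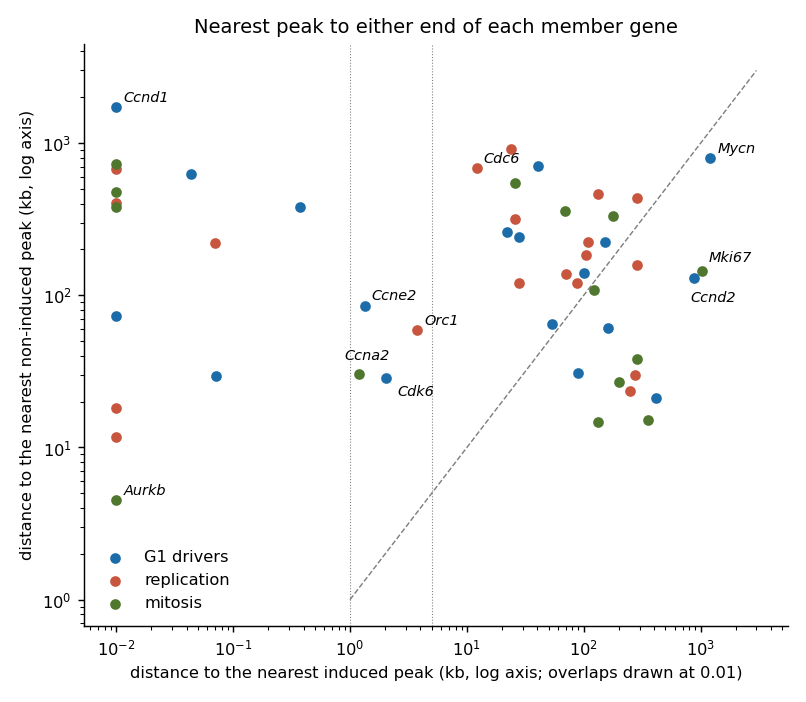
Distance from either end of each of the 51 genes to the nearest induced (x axis) and non-induced (y axis) peak, in kb on log axes, with peaks over an end drawn at 0.01 kb. Dotted lines are 1 and 5 kb and the dashed line is equal distance. Marked genes lie left of the first dotted line, and 37 of the 51 genes lie above the dashed line.

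The 33 genes without an induced peak within 5 kb were a median of 123 kb from the nearest one, against 142 kb for all protein-coding genes without such a peak. Over all 51 genes the medians were 40.5 kb to an induced peak and 145 kb to a non-induced one, against 89.9 and 138 kb over all protein-coding genes. These backgrounds include genes on X and Y, while all 51 genes lie on autosomes, so they are not matched. An induced peak was the nearer one for 37 of the 51 genes (72.5%), against 56.3% of protein-coding genes. These 37 include all 18 genes with an induced peak within 5 kb, so the share partly restates the counts above. The non-induced list was longer, but 3.15% of its peaks lay at gene ends, against 47.1% of induced peaks. By group an induced peak was nearer for 13 of 18 G1 drivers, 16 of 19 replication genes and 8 of 14 mitosis genes. Of the other 14 the closest to a non-induced peak were Ccnb1, Mad2l1, Cdc25a and Mcm4, at 14.7, 15.2, 21.0 and 23.6 kb.

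Where the strand was known, every marked member had its induced peak within 1 kb of the start. Of the 39 genes with a RefSeq start 11 (28.2%) had an induced peak within 1 kb of a listed start, against 14.0% of the 17492 protein-coding genes with such an entry. These are the 9 marked genes with an entry and, in addition, Cdk6 and Orc1. In 9 of the 11 (81.8%) the start itself lay under the peak, against 57.9% of 2443 genes in general, and the exceptions, Cdk4 and Mcm2, had peaks that began 44 and 70 bp after it. The middle of the peak lay on the gene's side of the start in 10 of the 11 (90.9%), by a median of 311 bp over all 11, against 57.2% and a median of 95 bp in general. The exception was Rrm2, whose peak was centred 46 bp before the start (-46 bp). Marked genes without an entry are Ccnd1, Rb1, Myc, Prim2 and Aurkb. Also without an entry are Ccnd2, Ccne2, E2f4, Mcm4, Pole, Ccna2 and Cdc25c.

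**Figure D4:**
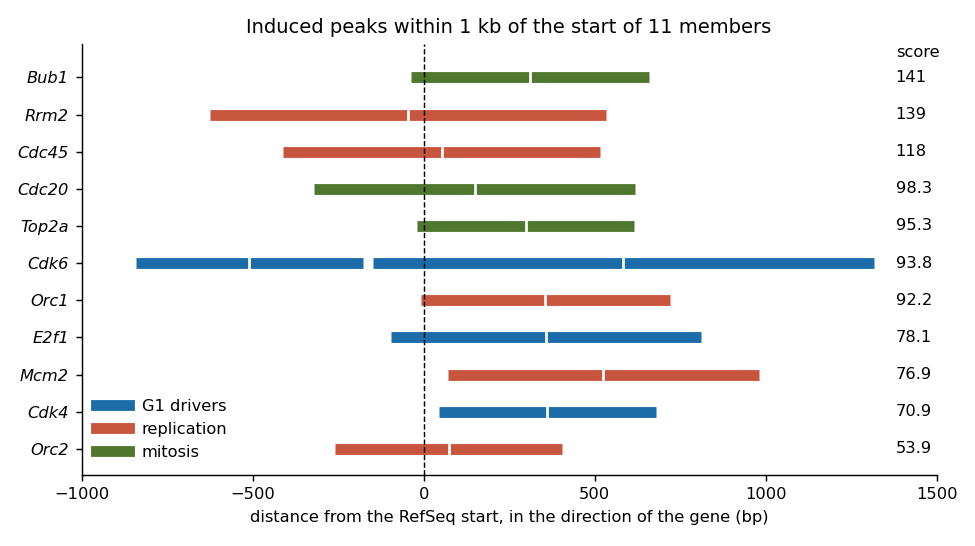
Induced peaks within 1 kb of the RefSeq start of 11 genes, as bars along the distance from the start in bp (positive values are inside the gene), ordered by score, which is printed at the right. White ticks are the middles of the peaks. All but Cdk4 and Mcm2 have a peak across 0.

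The median CG content of marked and other members was close, while over all genes marked promoters were the richer. In the promoter window of 300 bases (250 before and 50 after the start) the 9 marked genes with an entry held a median of 22 CG dinucleotides (range 11 to 48) and the 30 others 24 (range 8 to 41). Over all protein-coding genes the medians were 23 in 2373 marked and 11 in 15119 other promoters. The list as a whole therefore had promoters as rich in CG as marked genes in general, with a median of 23. Over all genes the marked share was 3.18% with fewer than 10 CG and 16.9%, 23.9% and 24.1% in the classes of 10 to 19, 20 to 29 and 30 or more. In the same classes 0 of 2, 4 of 15, 3 of 16 and 2 of 6 members were marked (0%, 26.7%, 18.8% and 33.3%). The members' share was above that of all genes at 10 to 19 and at 30 or more, and below it in the others. Fewer than 10 CG were held by 7494 of the 17492 genes but by 2 of the 39 members. The 13.4% for all genes is thus not matched for CG content, and an excess at equal content was not tested. The richest promoters were those of E2f1 (48) and Rrm2 (40), which are marked, and of Ccne1 (41), which is not. The poorest were those of Mcm3 (8) and Rrm1 (9), which are not marked, and Cdc45 (11), which is.

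Elements known from cell cycle promoters were searched on both strands of the same windows, namely TTCCCGC or TTGGCGC (the E2F element), CCAAT (bound by NF-Y) and TTTGAA (the CHR element of late cell cycle genes). The E2F element was found in 0 of the 9 marked and 17 of the 30 other members (56.7%), while over all genes 14.5% of marked and 7.90% of other promoters had it. The unmarked members with the element are Cdc25a, Cdk2, E2f2, E2f3 and Mycn of the G1 drivers, Cdc6, Cdt1, Mcm3, Mcm5, Mcm6, Mcm7, Pold1, Prim1 and Rrm1 of the replication genes, and Ccnb1, Cdk1 and Mki67 of the mitosis genes. In the Cdc25a stretch printed above, TTGGCGC begins 66 bases before the start (-66) and its reverse complement at -63, so the matches overlap. With all 4 spellings that have C or G at the third and the fourth place, tried after the first search had been seen, 1 of 9 marked (Rrm2, 11.1%) and 19 of 30 others (63.3%) had it. In the other genes of the same processes the shares were close: 10 of 38 marked (26.3%) and 29 of 101 others (28.7%) had the element. Neither difference was tested. CCAAT was in 7 of 9 marked and 20 of 30 other members (77.8% and 66.7%), against 39.0% of all promoters. It is present in the Rrm2 stretch at -50 and in the Bub1 stretch at -42 and, on the other strand, at -68. TTTGAA was in 4 of 9 and 9 of 30 (44.4% and 30%), against 16.5%, and in 8 of 11 mitosis promoters. These matches are of letters only, and binding of any factor to them was not measured.

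**Figure D5:**
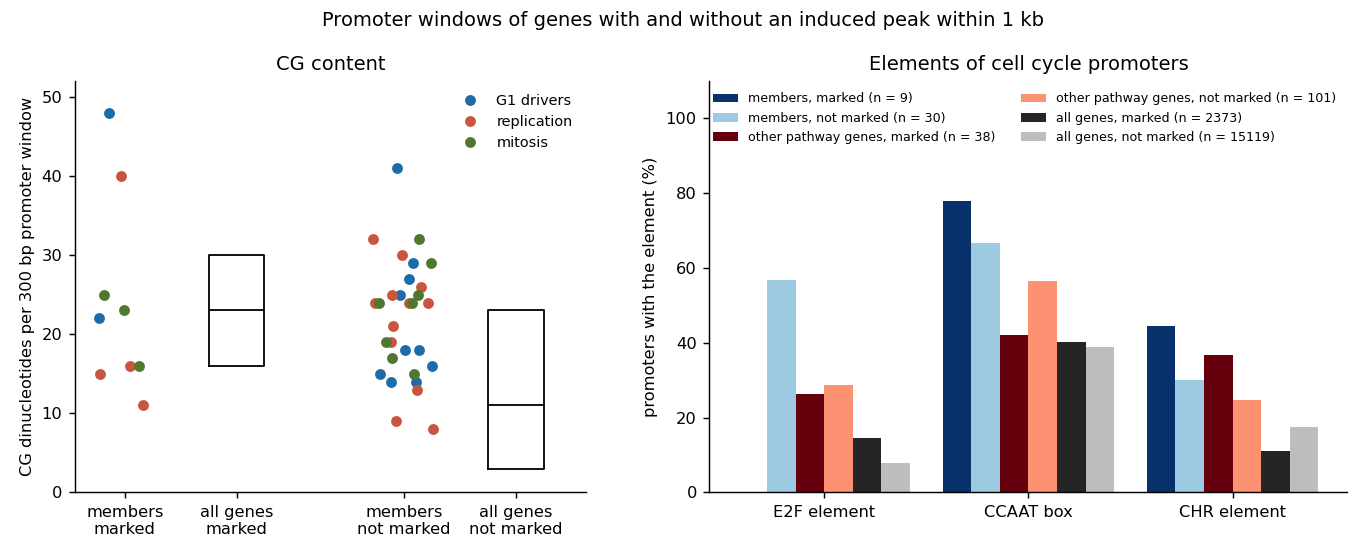
Left, CG dinucleotides per 300 bp promoter window for 9 marked and 30 other members (points) beside the median and quartiles of all genes (boxes). Right, percentage of promoters with each element in members, other genes of the same processes and all genes. The E2F bar of marked members is at 0 and that of the other members at 56.7%.

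Other genes of the same processes were marked about as often. Of 162 such genes 41 (25.3%) had an induced peak within 1 kb, with a median highest score of 82.2. Of other G1 genes 8 of 37 (21.6%) did, with Mybl2 (141), a partner of the MuvB complex, Mnt (129.7), a Myc antagonist, Cks2 (99.1) and Fbxw7 (94.5), which marks cyclin E for destruction, the highest. Of other replication genes 14 of 52 (26.9%) did, with Mcm8 (139), Timeless (129, a fork protection factor), Gins3 (106), part of the active helicase, and Rpa3 (87.0) the highest. Of other mitosis genes 19 of 73 (26%) did, with the condensin subunit gene Ncapd2 (319), the anaphase-promoting complex genes Anapc11 (147) and Cdc26 (141), and Zw10 (121) the highest. Ncapd2 stood above every one of the 51 genes. Whether the peaks of these 162 genes are shared with neighbours was not checked. In the non-induced list Wee1, a kinase gene that holds Cdk1 inactive, was the only one of these genes with a peak within 1 kb (50.55), close to the lowest score of that list.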

How the data were processed

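ChIP-seq peaks of HA-tagged Fbxl10 were analysed from 1 list per condition. Per the labels' protocols, each precipitation took 7 µg of chromatin and 5 µg of antibody. Bowtie2 and mm10 are named, without a version, per the submitters' processing notes. The deposited lists give the position and a score of each peak, and per the names of the peaks the authors called them with MACS, of which neither version nor threshold is stated, nor whether samples were pooled or how input was used. The protocol speaks of 3 independent samples, whose relation to the lists is not stated. The lists were assigned to conditions by the marks w and wo in their names and the matching titles. The input libraries were not used here.

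A gene was marked when a peak came within 1 kb of either end in the RefSeq gene table (GRCm38.p6, the assembly of mm10); 500 bp and 5 kb were also run. Promoter windows came from the RefSeq promoter table (first entry of a gene). Strands and starts came from the same table, and for start distances a peak near a start listed there counted. The members and lists were chosen with earlier results of these data known. By rule the text names all 51 members, neighbours within 1 kb of a member's peak that code for proteins, and per list of other genes the 4 with the highest induced peaks and all with a non-induced peak. Of 38 other G1 genes Cdk3, a pseudogene in the table, was left out. Marking was tested on simulated data, with a peak planted at the lower end of each of 200 genes among 21887. Recovered were 200, which shows only that the distance rule ran as written. Genes marked wrongly were not counted. Intervals came from SciPy 1.17.1, plots from matplotlib 3.10.9 and all else from pandas 2.3.3 and numpy 2.4.6 under Python 3.11.15.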

Additional observations from a re-analysis of the deposited data

How the results depend on the processing

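The 14 members marked at 1 kb were the same genes with a window of 500 bp and with peak midpoints. Lists of equal length (5497 peaks each) shorten the non-induced list alone, where the count stayed 0. With a score limit at the median of both lists together (61.6) 13 were marked, Orc2 being lost. With the gene body included, or a window of 5 kb, it was 18. Taking starts only, which is possible for 39 of the 51 genes, left 11 in all and 3 G1 drivers in place of 5, since Ccnd1, Myc and Rb1 have no entry and Cdk6 was gained. The non-induced count was 1 in place of 0 with a window of 5 kb (Aurkb) and with the gene body included (Prim2). The median highest score was 103 with 500 bp and 96.5 with 5 kb, and the median CG count of marked members 23 with 5 kb. With 4 spellings of the E2F element, added after the data were seen, 1 marked member had it. The other counts stayed within 1.5 times. No paired analysis was possible because each condition has 1 list. Depth is unknown, so a missing peak does not show that Fbxl10 is absent.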
